A study of Saccharomyces cerevisiae with 6 samples.

Results

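The reductive iron uptake system of S. cerevisiae was examined in yeast cells that overexpressed Med3-GST, against yeast cells that overexpressed GST alone. It was taken as 10 genes for the ferric reductases (FRE1 to FRE6), the oxidase and permease of the plasma membrane (FET3 and FTR1) and the copper loading of the oxidase (ATX1 and CCC2). The genes were chosen by their known roles, through the gene symbols of the array's annotation. Each of the 10 had 1 probe set, out of 5498 probe sets for 5449 genes of S. cerevisiae that were tested. In the group Med3-GST (GST-med3 in the sample labels), the Mediator subunit Med3 carried an N-terminal GST tag, and the group GST carried the tag alone. Both constructs stood in a galactose-induced plasmid under the GAL1/10 promoter, and cells of both groups grew in SC-ura medium with galactose and were profiled after 48 h of overexpression. RNA of 3 biological replicates of each group (A, B and C) was hybridized to 1 Affymetrix array per replicate. The study's strain list has both plasmids in derivatives of the laboratory strain BY4741 (MATa, with deletions in his3, leu2, met15 and ura3). These derivatives carry a tagged subunit of Mediator (Med18-3FLAG or Med3-GFP). The titles of the GST arrays carry the number of BY4741, and those of the Med3-GST arrays carry the end of the locus name of MED3 (YGL025C). Neither title names a tagged subunit, and the sources do not otherwise say which strain was grown for the arrays. No step in the labels removed the chromosomal MED3 gene, and the array does not tell its transcript from that of the plasmid.

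Yeast takes up iron from the medium by first reducing it. Ferric reductases of the FRE family, which are flavocytochromes in membranes, pass electrons from NADPH to ferric iron or cupric copper outside the cell. The reduced iron is then oxidized again by Fet3, a multicopper ferroxidase, and carried through the membrane by the permease Ftr1, which works as a complex with Fet3. Fet3 needs copper, which the chaperone Atx1 hands to the ATPase Ccc2 of the secretory pathway, where the oxidase is loaded. Most of these genes are targets of the activator Aft1, which is active when iron is scarce, while FRE1 is also a target of the copper-sensing activator Mac1.

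Values were log2 signals, converted from the deposited log10 signals and not scaled further. The median log2 signal of the arrays lay between 9.87 and 9.99 in the Med3-GST group and between 9.99 and 10.08 in the GST group. The median log2 difference over all probe sets, Med3-GST minus GST, was -0.085 as deposited and 0.01 with centred arrays, that is, after subtracting from every array its median. Replicate B had the lowest median in both groups. Groups were compared with limma over all probe sets (two-sided, Benjamini-Hochberg adjusted p under 0.05), which gave every log2 difference a common standard error of 0.05. Because a common error can pass genes that vary more, an adjusted p from its own spread is also given for each of the 10 genes, as is the value with centred arrays where centring moved a difference by more than 1.5 times. Background was read from 1747 probe sets on the same arrays that are directed at S. pombe, another yeast. A gene was called near background where its mean lay under their 95th percentile, a log2 signal of 7.49 in the Med3-GST group and 7.50 in the GST group. The S. pombe probe sets had a median log2 difference of -0.0011 as deposited, so the offset between the groups was not seen in the background signal. Centring adds 0.095 to every log2 difference, also to those of genes near background. MED3 itself, listed as PGD1, averaged 11.81 ± 0.07 in Med3-GST cells and 8.11 ± 0.12 in GST cells (log2 signal, SD, n = 3), so that the arrays went with their labels. RNA was measured in bulk, where fewer cells with a transcript and less transcript per cell cannot be told apart.

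The system was modestly lower in Med3-GST cells. Of the 10 genes, 9 fell and 1 rose past the test, where 47.8% of all probe sets were lower and 27.1% were higher. With centred arrays, 8 fell, 1 rose and 1 did not pass, where 41.7% of all probe sets were lower and 43.6% were higher. The median log2 difference of the 10 genes was -0.32, beside -0.085 over all probe sets, and with centred arrays it was -0.22, beside 0.01. FRE4, the gene that rose, and FRE5 were near background in both groups. The other 8 genes were above background in both groups. All 8 fell under both scalings, beside, as deposited, 49.6% lower and 27.5% higher among the 5152 probe sets above background in at least 1 group. The limma adjusted p of the 10 genes lay between 9.12e-55 and 0.000207 with the common error. When each was tested with its own spread, all 10 still passed, with an adjusted p between 0.00102 and 0.0371, as did 41.4% of all probe sets in the lower direction and 22.8% in the higher. No gene of the system reached a 2-fold difference, which 1.2% of all probe sets did in the lower direction and 0.637% in the higher. For all 9 genes that fell, every Med3-GST array was below every GST array, as was the case for 48.4% of all probe sets, and for FRE4 every Med3-GST array was above, as for 26.6%. With centred arrays, FRE5 overlapped between the groups, and the other 8 genes that fell still did not overlap, nor did FRE4, where 42.2% of all probe sets were separated in the lower and 43.2% in the higher direction.

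**Figure D1:**
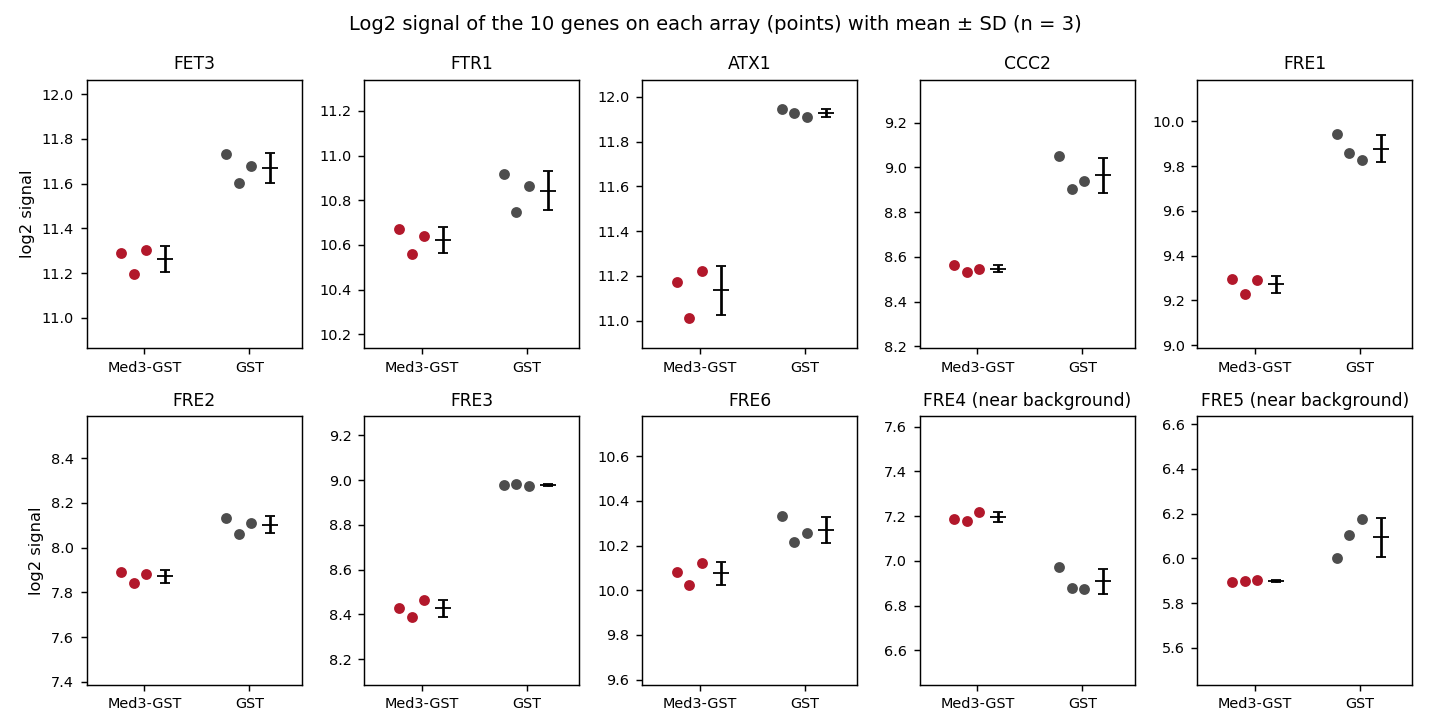
Each panel shows the log2 signal of 1 gene (vertical axis, 1.2 log2 units high in every panel) on the 3 Med3-GST arrays and the 3 GST arrays as points, with the mean and SD beside them. The points of the groups do not overlap in any panel, and FRE4 is the gene with the higher signal in Med3-GST cells.

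FET3 and FTR1, the oxidase and permease pair, both fell. FET3 had log2 signals of 11.29, 11.19 and 11.30 in the Med3-GST arrays A, B and C, against 11.73, 11.60 and 11.68 in the GST arrays A, B and C. Every Med3-GST array was thus below the lowest GST array. The log2 difference was -0.41 ± 0.05 (SE), a 1.33-fold decrease, with an adjusted p = 0.00492 from its own spread. FTR1 had log2 signals of 10.67, 10.56 and 10.64 in the Med3-GST arrays and 10.92, 10.75 and 10.86 in the GST arrays. The gap between the lowest GST array and the highest Med3-GST array was narrow, and the log2 difference was -0.22 ± 0.05 (SE), with an adjusted p = 0.0371 from its own spread. With centred arrays it was -0.12, still past the test. In the order of all probe sets, 14.5% had a lower difference than FET3 and 33.8% had a lower difference than FTR1.

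The copper loading genes fell as well. ATX1, the cytosolic copper chaperone, had the lowest difference of the 10 genes. Its log2 signals were 11.17, 11.01 and 11.22 in the Med3-GST arrays A, B and C, against 11.94, 11.93 and 11.91 in the GST arrays A, B and C. The GST arrays lay close together, while Med3-GST replicate B was lower than the others of its group, as was the median of that array. The log2 difference was -0.79 ± 0.05 (SE), a 1.73-fold decrease, with an adjusted p = 0.0022 from its own spread. It was -0.73 without Med3-GST replicate B. Only 2.22% of all probe sets had a lower difference. CCC2, the copper ATPase that receives copper from Atx1, had log2 signals of 8.56, 8.53 and 8.55 in the Med3-GST arrays and 9.05, 8.90 and 8.94 in the GST arrays. Its groups were clearly apart, with a log2 difference of -0.42 ± 0.05 (SE), a 1.34-fold decrease, and an adjusted p = 0.00362 from its own spread.

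Of the 6 reductase genes, 5 fell and FRE4 rose past the test, beside 47.8% lower and 27.1% higher over all probe sets. With centred arrays 4 fell, FRE4 rose and FRE5 did not pass, beside 41.7% lower and 43.6% higher. FRE4 and FRE5 were near background. FRE1, a main ferric and cupric reductase of the plasma membrane, had log2 signals of 9.30, 9.23 and 9.29 in the Med3-GST arrays A, B and C, against 9.95, 9.86 and 9.83 in the GST arrays A, B and C. Its difference of -0.61 ± 0.05 (SE, log2), a 1.52-fold decrease, was the lowest among the reductases, with an adjusted p = 0.00174 from its own spread. FRE2, the other main reductase of the plasma membrane, was dimmer, with 7.89, 7.84 and 7.88 in the Med3-GST arrays and 8.13, 8.06 and 8.11 in the GST arrays. It was above background in every array but not far from it. The log2 difference of FRE2 was -0.23 ± 0.05 (SE), with an adjusted p = 0.00409 from its own spread, and -0.14 with centred arrays, still past the test. When the background of each array was subtracted before centring, it was -0.21.

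FRE3, which acts on iron bound to siderophores, had log2 signals of 8.43, 8.39 and 8.46 in the Med3-GST arrays A, B and C. Its GST arrays all read 8.98, with an SD of 0.0035 as deposited, although the medians of these arrays differed. The log2 difference was -0.55 ± 0.05 (SE), a 1.47-fold decrease, with an adjusted p = 0.00102 from its own spread. With centred arrays its GST values spread more, at -1.107, -1.005 and -1.060, against -1.535, -1.483 and -1.524 in the Med3-GST arrays. FRE6, a metalloreductase of the vacuole, had log2 signals of 10.08, 10.02 and 10.12 in the Med3-GST arrays and 10.33, 10.22 and 10.26 in the GST arrays. Its difference was the smallest in size among the 8 genes above background, at -0.19 ± 0.05 (SE, log2), with an adjusted p = 0.0237 from its own spread. With centred arrays it was -0.10, still past the test. Of all probe sets, 37.1% had a lower difference than FRE6.

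FRE4 and FRE5 gave no measured fold, since both were near background in both groups. FRE4, a reductase for siderophore iron like FRE3, had log2 signals of 7.18, 7.18 and 7.22 in the Med3-GST arrays A, B and C, against 6.97, 6.88 and 6.87 in the GST arrays A, B and C. It was brighter than 93.1% of the S. pombe probe sets in Med3-GST cells and than 90.9% of them in GST cells. The difference in log2 signal was 0.29 with an adjusted p = 0.00456 from its own spread, and 0 of the 1747 S. pombe probe sets differed by as much in either direction. FRE5, a putative reductase, had log2 signals of 5.893, 5.900 and 5.904 in the Med3-GST arrays and 6.002, 6.105 and 6.177 in the GST arrays. These lie about the median of the S. pombe probe sets, which was 6.04 in Med3-GST cells and 6.05 in GST cells. Its difference in log2 signal was -0.20 as deposited, and 1 of the 1747 S. pombe probe sets differed by as much in either direction. With centred arrays it was -0.10 and did not pass (adjusted p = 0.0777 from limma), whereas it passed when the replicate letter was added as a block to that fit (adjusted p = 0.0154). After background subtraction with centring it was 0.10, so that the sign of the difference of FRE5 depended on the treatment of background. When FRE5 was tested with its own spread, the adjusted p was 0.031 as deposited and 0.298 with centred arrays.

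**Figure D2:**
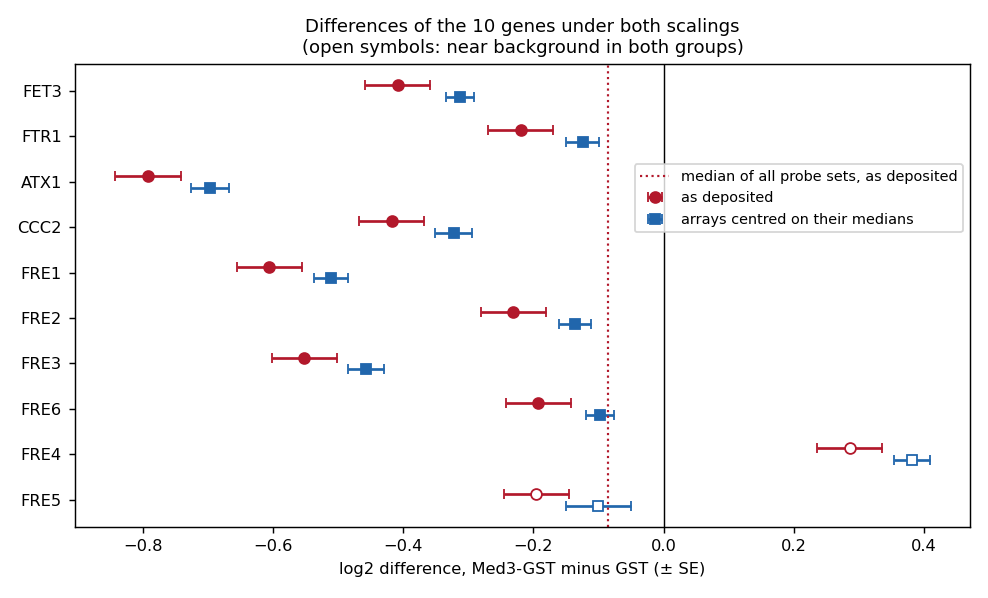
The log2 difference, Med3-GST minus GST, of each of the 10 genes is plotted with its SE from limma, as deposited (circles) and with arrays centred on their medians (squares). Centring moved every gene to the right by the same amount, and the 8 filled genes stayed below 0 under both scalings.

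Changes of genes of the system relative to each other were described by the log2 ratio of a pair of genes on the same array, which is free of offsets between arrays. The 11 pairs were chosen after the values had been seen, and an exact permutation test of 3 arrays against 3 (two-sided) cannot give a p under 0.1. For 10 of the 11 pairs the exact p was 0.1, the smallest possible, and the adjusted p over the pairs was 0.11, so that none passed. Relative to the mean of the GST arrays, the log2 ratio of FET3 over FTR1 was -0.21, -0.19 and -0.17 on the Med3-GST arrays, while the GST arrays lay between -0.01 and 0.03. The change of this ratio was -0.19 ± 0.02 (SE, log2). The ratio of ATX1 over CCC2 changed by -0.37 ± 0.07 (SE, log2), and Med3-GST replicate B was the lowest array for it. FRE1 over FRE2 changed by -0.37 ± 0.03 (SE), FRE2 over FRE3 by 0.32 ± 0.03 (SE) and FRE1 over FRE6 by -0.41 ± 0.02 (SE). FRE1 over FRE3 changed by -0.05 ± 0.04 (SE), with overlapping groups (exact permutation p = 0.2). Since no pair could have passed with 3 arrays a group, these changes are given as values only, and unequal decreases of the genes were not established.

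Fet3 and Ftr1 have relatives in the membrane of the vacuole, the oxidase Fet5 and the permease Fth1, which move iron out of it. Neither of the vacuolar pair fell past the test. FTH1 rose, with log2 signals of 10.95, 10.84 and 10.93 in the Med3-GST arrays A, B and C, against 10.67, 10.58 and 10.64 in the GST arrays A, B and C. The log2 difference was 0.28 ± 0.05 (SE) as deposited and 0.37 with centred arrays. FET5 had log2 signals of 10.50, 10.42 and 10.49 in the Med3-GST arrays and 10.57, 10.50 and 10.54 in the GST arrays. Its difference was -0.07 (adjusted p = 0.208 from limma) as deposited and 0.03 with centred arrays, and it did not pass under either scaling. As deposited, every Med3-GST array of FET5 was still below every GST array, narrowly, at 10.495 against 10.501, as for 48.4% of all probe sets. With centred arrays the groups of FET5 overlapped. Within arrays, the ratio of FTR1 over FTH1 changed by -0.50 ± 0.02 (SE, log2) and that of FET3 over FET5 by -0.34 ± 0.02 (SE), with no overlap between the groups. FET5 and FTH1 were singled out after their values had been seen.

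**Figure D3:**
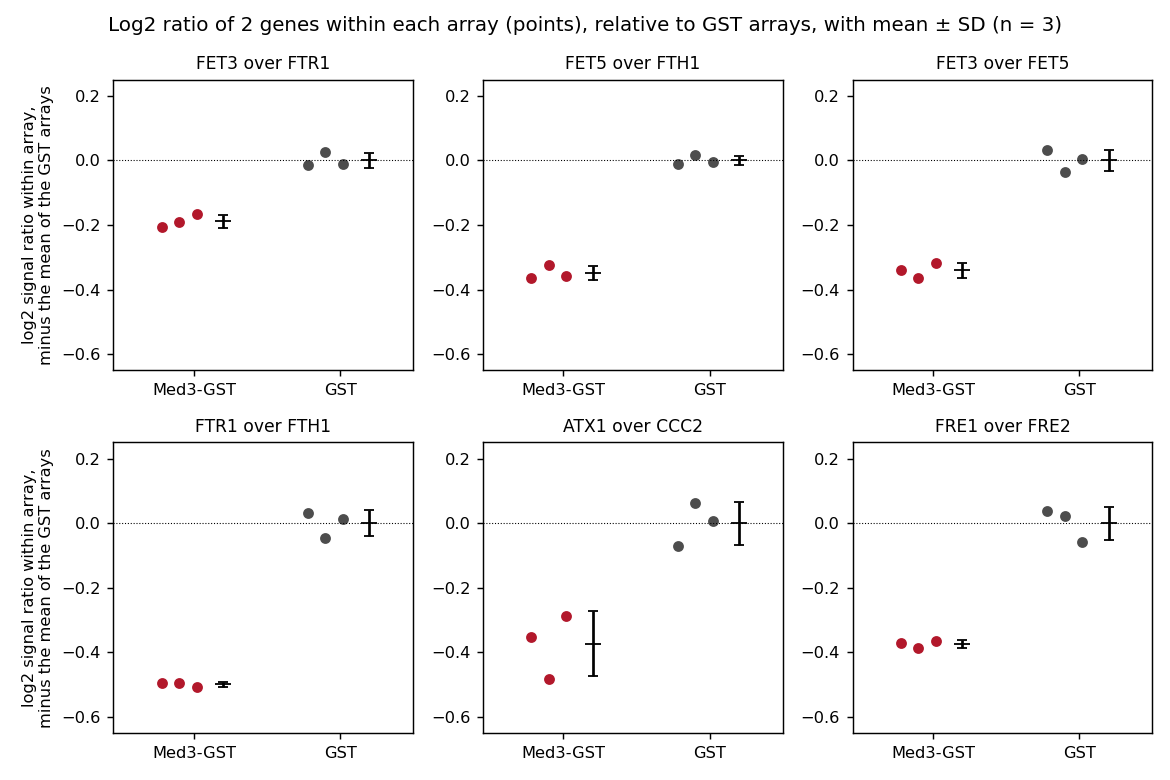
Each panel shows the log2 ratio of the signals of 2 genes within each array, minus the mean ratio of the GST arrays, as points with mean and SD (n = 3). All 6 ratios shown were lower on every Med3-GST array than on every GST array, with a mean change of -0.19 for FET3 over FTR1 and of -0.50 for FTR1 over FTH1.

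The genes around the system were counted in 5 lists of 38 genes, all of them measured. Of the 38, 20 fell, 10 rose and 8 did not pass, shares near those of all probe sets (47.8% lower and 27.1% higher). When each was tested with its own spread, 20 fell and 7 rose, beside 41.4% lower and 22.8% higher over all probe sets. With centred arrays 20 fell, 15 rose and 3 did not pass, beside 41.7% lower and 43.6% higher over all probe sets. Of 3 other genes of the FRE family, AIM14, an NADPH oxidase of the family, fell by 0.59 on the log2 scale. FRE7 and FRE8 were near background in both groups like FRE4, and their log2 signals were each higher by 0.27 in Med3-GST cells.

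Of 8 other genes of copper supply, 5 fell, 1 rose and 2 did not pass, beside 47.8% lower and 27.1% higher over all probe sets. Their median log2 difference was -0.29, beside -0.085 over all probe sets. With centred arrays 5 fell and 3 rose, beside 41.7% lower and 43.6% higher. CTR1, the high-affinity copper transporter of the plasma membrane, had log2 signals of 8.40, 8.45 and 8.41 in the Med3-GST arrays A, B and C, against 9.84, 9.78 and 9.89 in the GST arrays A, B and C. These groups were farther apart than those of any of the 10 genes, with a log2 difference of -1.42. COX17, which carries copper for cytochrome c oxidase, had a log2 difference of -0.48, MAC1, the copper-sensing activator, of -0.37 and CUP2, the activator of metallothionein genes, of -0.30. CTR3, a further copper transporter gene, had a difference of 0.08 and did not pass as deposited (adjusted p = 0.144 from limma), whereas it was higher with centred arrays (0.17). Within arrays, CTR1 over FRE1 changed by -0.81 ± 0.06 (SE, log2). The gene that rose was CTR2, a copper transporter of the vacuole, with a log2 difference of 0.12, overlapping groups and an adjusted p = 0.132 from its own spread as deposited, and with a difference of 0.22 and separate groups with centred arrays. CCS1, the copper chaperone of superoxide dismutase, had a difference of -0.28 (-0.19 with centred arrays, past the test under both), and ATX1 over CCS1 changed by -0.51 ± 0.05 (SE, log2) within arrays. GEF1, a chloride channel needed for copper loading of Fet3, had a difference of 0.06 and did not pass as deposited (adjusted p = 0.248 from limma), whereas it was higher with centred arrays (0.16).

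The siderophore route, which takes up iron bound to organic chelators, was split. Of 7 genes, 4 fell, 1 rose and 2 did not pass, beside 47.8% lower and 27.1% higher over all probe sets. Their median log2 difference was -0.53, beside -0.085 over all probe sets. With centred arrays 4 fell and 3 rose, beside 41.7% lower and 43.6% higher. FIT2, a cell wall mannoprotein that retains siderophores, had a log2 difference of -1.76, and the siderophore transporter genes ARN2, ARN1 and SIT1 had -1.23, -0.64 and -0.53. FIT1, a mannoprotein gene like FIT2, rose with a log2 difference of 0.12 and with groups that did not overlap, but not with its own spread (adjusted p = 0.0747), and with centred arrays its difference was 0.21. ENB1, the enterobactin transporter, and FIT3 had 0.02 and 0.03 and did not pass as deposited, whereas both were higher with centred arrays (0.12 and 0.13). FIT2 and ARN2 thus had lower differences than any of the 10 genes of the reductive system. Of 8 genes of vacuolar and low-affinity transport, 5 fell, 1 rose and 2 did not pass under both scalings. Over all probe sets, 47.8% were lower and 27.1% higher as deposited, and 41.7% lower and 43.6% higher with centred arrays. The median log2 difference of these 8 genes as deposited was -0.25, beside -0.085 over all probe sets. FET4, the low-affinity iron transporter, had a log2 difference of -1.49, SMF3, a metal transporter of the vacuole, of -0.50, COT1, a vacuolar zinc and cobalt transporter, of -0.37 and SMF1, a divalent metal transporter, of -0.33.

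Of 12 regulators and iron-responsive genes, 5 fell, 5 rose and 2 did not pass, beside 47.8% lower and 27.1% higher over all probe sets. Their median log2 difference was -0.05, beside -0.085 over all probe sets. With centred arrays 5 fell, 6 rose and 1 did not pass, beside 41.7% lower and 43.6% higher. TIS11, which binds mRNAs and promotes their decay when iron is scarce, had a log2 difference of -1.69, and its relative CTH1 had -0.48. MRS4, a mitochondrial iron transporter, fell by 0.38, and YAP5, an activator that responds to high iron, rose by 0.37. AFT1, the activator of FET3 and FTR1 and named here after its values were seen, had log2 signals of 8.72, 8.63 and 8.72 in the Med3-GST arrays A, B and C, against 8.42, 8.27 and 8.30 in the GST arrays A, B and C. Its difference was 0.36 ± 0.05 (SE, log2), the opposite sign to those of FET3, FTR1, ATX1 and CCC2, and it was 0.45 with centred arrays. These are values of AFT1 RNA, and the activity of the Aft1 protein was not tested. Its relative AFT2 rose as well, with a log2 difference of 0.12 as deposited and 0.22 with centred arrays.

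**Figure D4:**
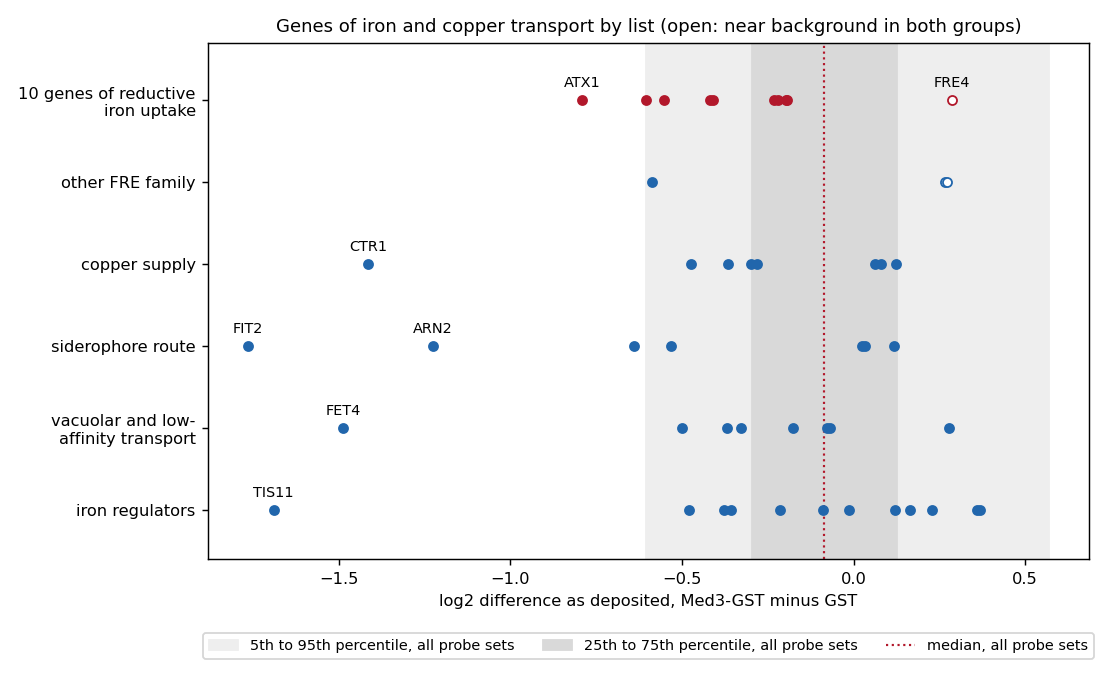
Points are the log2 differences as deposited, Med3-GST minus GST, of the 10 genes (top row) and of the 38 other genes by list, with open points for genes near background. The light band runs between the 5th and 95th percentiles of all probe sets, -0.60 and 0.57, and ATX1 is the gene of the top row that lies clearly outside, and CTR1, FIT2, ARN2, FET4 and TIS11 lie farther out.

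The chromosomal neighbours of FRE3, FRE4 and FRE5 differed widely among themselves. By the gene order of assembly R64, FRE3 and FRE5 on chromosome XV flank FIT2 and FIT3. Within this stretch FRE3 had a log2 difference of -0.55 and FIT2 of -1.76, whereas FIT3, a further mannoprotein gene of the route, had a difference of 0.03 (adjusted p = 0.559 from limma). As deposited, FIT3 overlapped between the groups, with log2 signals of 10.79, 10.71 and 10.79 in the Med3-GST arrays and 10.81, 10.61 and 10.77 in the GST arrays. FRE4 on chromosome XIV lies close to the biotin synthesis genes BIO3, BIO4 and BIO5, which had log2 differences of -2.39, -2.21 and -2.56, while MNT4, between BIO3 and FRE4, had -0.18 (-0.085 with centred arrays).

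**Figure D5:**
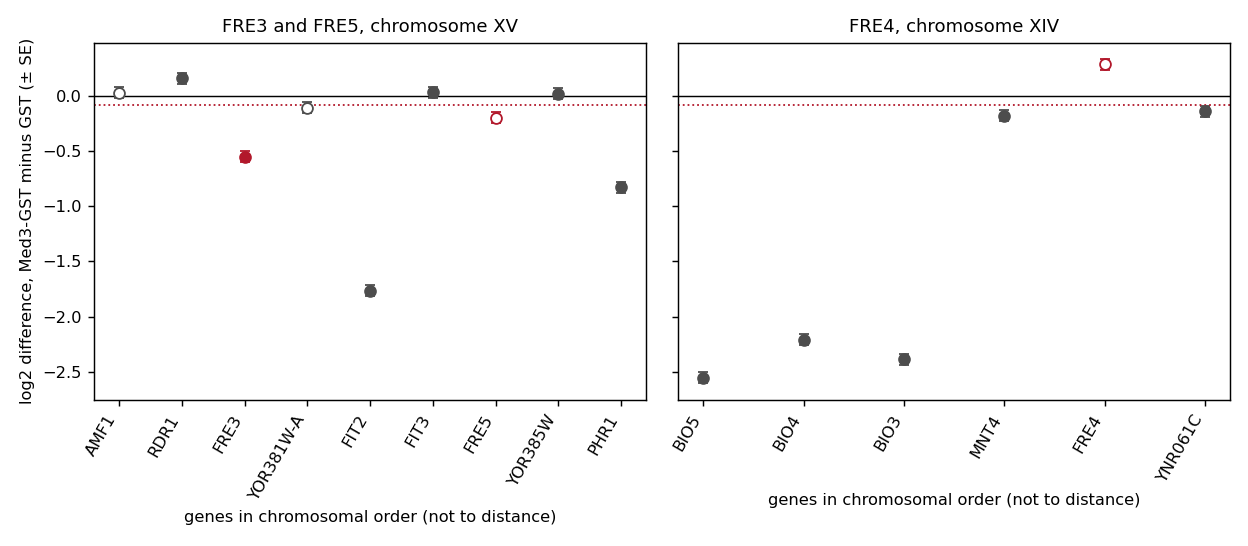
The log2 difference, Med3-GST minus GST, with its SE of 0.05 is plotted for genes in chromosomal order around FRE3 and FRE5 (left) and FRE4 (right), with the reductase genes in red, open points near background and the dotted line at the median of all probe sets. FRE3 at -0.55 and FIT2 at -1.76 are separated by a gene near background and followed by FIT3 at 0.03.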

How the data were processed

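The authors hybridized 1 Affymetrix yeast array per biological replicate and deposited 1 log10 signal per probe set and array, normalized within the experiment. Base 10 was taken because back-transformed values then had at most 2 decimals in 100% of cells. The sources used here do not name the kind of normalization, the background correction or the summary of probes, and the number of arrays limits the precision. Of 10928 probe sets, 5498 had a gene of S. cerevisiae (named by assembly R64) and were tested. Left out were 1747 for S. pombe, used as background, and 3683 with no listed gene. Values were converted to log2 and fitted in limma 3.58.1 (R 4.3.3) without trend. A per-gene test used the same linear model without moderation. Alternatives were centring, quantile normalization, background subtraction (floor of 16 units) with centring, a replicate block, trend with robust fitting, array weights, a filter on dim probe sets and leaving out each array. Replicates were labelled as biological. Each gene's brightest probe set was used. All 10 members are named, with up to 4 called genes of each other list, and CCS1, CTR2, CTR3, GEF1, FET5, FTH1, FIT1, FIT3, ENB1, AFT1, AFT2, the neighbours and the gene pairs were added after their values were seen. The members and lists were chosen with earlier results of these data known. The procedure was tested on simulated arrays. No sequences were used here.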

Additional observations from a re-analysis of the deposited data

How the results depend on the processing

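The 10 genes kept their direction and their side of the threshold in 155 of 158 recomputed differences, and the exceptions were all of FRE5, which is near background. Its log2 difference was -0.10 with centred arrays (also without moderation) and 0.10 after background subtraction with centring. The replicate block, trend with robust fitting, the fit without moderation and the filter on dim probe sets left the differences of the genes they kept unchanged. Those settings could move only the p, not the direction, so the tally is not one of independent recomputations. With a replicate block on centred arrays FRE5 passed, with 9 of the 10 genes lower, beside 2294 of all 5498 probe sets. The number of the 10 genes that rose was 2 after background subtraction with centring, when FRE5 was added to FRE4, and 0 with dim probe sets left out, which removes both. Leaving out each array in turn gave 9 lower and 1 higher every time, beside 2434 to 2738 lower and 1305 to 1724 higher over all probe sets. The range of ATX1 was then -0.84 to -0.73. Over all probe sets, 1488 were higher and 2629 lower as deposited, against 2395 higher with centred arrays, 2406 with background subtraction and 2412 with a replicate block on centred arrays. As deposited, the replicate block gave 1711 higher and 2869 lower probe sets and again 9 lower and 1 higher of the 10 genes. A pairing of the letters A, B and C across the groups was not shown, since deviations of arrays with the same letter correlated at only 0.029 to 0.062, but each array correlated best with its own letter, and arrays of different letters correlated between -0.033 and -0.011. The change of FRE1 over FRE3 was 0.0094 with array weights, whose estimation stopped before it converged. Signals near background limit FRE4, FRE5, FRE7 and FRE8.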
